A study of Mus musculus with 6 samples.

Results

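Autophagy genes were followed in the tibialis anterior, the fast shin muscle that lifts the foot, of young and aged mice. The 6 genes were chosen by name, with earlier results of these data known. Map1lc3a, Map1lc3b and Gabarapl1 belong to the ATG8 family, Sqstm1 encodes the cargo receptor p62, Bnip3 encodes a mitophagy receptor and Ctsl encodes the lysosomal protease cathepsin L. The deposited tables used here list 5 of them among 11239 genes, and Ctsl was not analysed here. All 5 passed the minimum of a mean of 1 FPKM (fragment counts divided by transcript length and library total) over the libraries. Total RNA was extracted with TRIzol from 3 samples of C57BL/6 mice aged 3 months (young) and 3 samples of C57BL/6 mice aged 18 months (aged). No treatment or transgene is named for either group, and the sources used here state neither sex nor library strandedness. Whether each sample is a separate animal is not stated either, so the p-values measure the spread between these samples, which may be technical. Library totals, recovered from the FPKM values, lay between 71984420 and 102135094 fragments. Summed FPKM of 9 fast fibre markers was 99228, 105661 and 105725 in young and 94949, 98509 and 95403 in aged replicates 1, 2 and 3. All aged sums lay below all young ones. Of the 9 markers 2 were called higher and 3 lower in aged muscle, beside 51.8% of all genes called (limma, as described below).

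In autophagy a cup-shaped membrane grows around part of the cytoplasm, closes into an autophagosome and fuses with a lysosome, whose enzymes break the contents down. ATG8 proteins are attached to the lipid phosphatidylethanolamine in this membrane, where they recruit receptors such as p62 that carry ubiquitin-tagged cargo. Skeletal muscle uses the pathway to clear damaged proteins and mitochondria and to supply amino acids during fasting, and in mouse muscle FoxO3 is known to drive Map1lc3b, Gabarapl1 and Bnip3.

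Map1lc3a and Map1lc3b encode close relatives of the same protein, LC3, and their reads could be mistaken for each other where the transcripts match. The opening 180 coding bases of both are shown to make the difference visible. Capitals mark the 41 positions of these 180 at which the genes differ. The bases are those of GENCODE M21 on GRCm38.
Map1lc3a: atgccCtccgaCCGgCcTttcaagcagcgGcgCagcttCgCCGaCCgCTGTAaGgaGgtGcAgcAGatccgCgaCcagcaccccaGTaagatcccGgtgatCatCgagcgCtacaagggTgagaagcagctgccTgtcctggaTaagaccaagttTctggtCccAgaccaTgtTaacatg
Map1lc3b: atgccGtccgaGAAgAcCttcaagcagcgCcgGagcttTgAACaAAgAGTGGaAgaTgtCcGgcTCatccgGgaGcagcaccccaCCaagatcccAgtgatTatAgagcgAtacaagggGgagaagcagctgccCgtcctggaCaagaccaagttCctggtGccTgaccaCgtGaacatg
The coding sequences lie on the plus strand, at chr2:155276607-155277637 for Map1lc3a (366 coding bases) and chr8:121590525-121596770 for Map1lc3b (378 coding bases). In the alignment 278 bases were identical, which is 76.0% of the Map1lc3a and 73.5% of the Map1lc3b coding sequence, and the longest identical run was 15 bases. No stretch of 50 bases of either longest coding transcript occurred in a transcript of another gene, 0 of 1063 for Map1lc3a and 0 of 2584 for Map1lc3b.

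Of the 5 genes, 1 fell in aged muscle, Map1lc3a, none rose and 4 did not pass the test. Over all 7690 genes tested with limma, 51.8% were called, 24.5% as lower and 27.3% as higher in aged muscle. A call means an adjusted p under 0.05 (limma on log2(FPKM + 1), Benjamini-Hochberg over all genes tested). In 1 of the 5 genes, again Map1lc3a, the 3 aged libraries lay outside the range of the 3 young ones, against 62.8% of all genes tested (29.0% with all aged libraries lower and 33.8% with all higher). The absolute log2 change of the 4 that did not pass lay between 0.05 and 0.11, where the median over all genes tested was 0.24. None of these 4 had an unadjusted p under 0.05 in limma, and limma-voom on the recovered fragments also called Map1lc3a and none of the other 4.

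Map1lc3a (ENSMUSG00000027602, chr2:155276297-155278073, plus strand) encodes LC3A, an ATG8 protein. Its level was 305, 309 and 291 FPKM in young replicates 1, 2 and 3, and 219, 242 and 250.5 FPKM in aged replicates 1, 2 and 3. All aged libraries lay below all young ones, with aged replicate 1 lowest. The mean fell from 302 ± 9.45 to 237 ± 16.0 FPKM (SD, n = 3 each), which is 1.27-fold. On the log2(FPKM + 1) scale, on which all log2 changes are given here as aged minus young, the change was −0.35 ± 0.06 (SE), with a 95% interval of −0.50 to −0.20 and an adjusted p of 0.00402 (limma). A larger absolute change was found in 33.0% of the genes tested. In fragments, the gene was covered by 27658, 20334 and 27177 in young and by 20290, 20090 and 20610 in aged replicates 1, 2 and 3. No other annotated gene overlaps it.

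Map1lc3b (ENSMUSG00000031812, chr8:121590361-121598760, plus strand) encodes LC3B, the ATG8 protein most used to follow autophagosomes. Its level was 83.1, 79.1 and 73.6 FPKM in young replicates 1, 2 and 3, and 80.4, 73.4 and 73.3 FPKM in aged replicates 1, 2 and 3. The groups overlapped, and the means of 78.6 ± 4.78 and 75.7 ± 4.09 FPKM (SD, n = 3 each) differed by less than the spread in each group. The log2 change was −0.05 ± 0.07 (SE), with a 95% interval of −0.21 to 0.10 and an adjusted p of 0.536 (limma). The interval includes a decrease of 0.21, so a small difference was not detectable here. Annotated genes that overlap it are Zcchc14 on the other strand and the predicted gene Gm20388.

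Gabarapl1 (ENSMUSG00000030161, chr6:129533160-129542346, plus strand) encodes an ATG8 protein of the GABARAP branch. Its level was 47.8, 45.8 and 51.6 FPKM in young replicates 1, 2 and 3, and 48.7, 63.3 and 46.1 FPKM in aged replicates 1, 2 and 3. Aged replicate 2 stood above the other 5 libraries, and the other aged libraries lay within the young range. The means were 48.4 ± 2.92 and 52.7 ± 9.25 FPKM (SD, n = 3 each), and the log2 change was 0.11 ± 0.12 (SE), with a 95% interval of −0.16 to 0.38 and an adjusted p of 0.453 (limma). Without aged replicate 2 the change was −0.03. In its longest coding transcript, 18.6% of the stretches of 50 bases are shared with 1700101I11Rik, an overlapping gene annotated on the other strand, so the counts of the pair are uncertain.

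Sqstm1 (ENSMUSG00000015837, chr11:50199366-50210827, minus strand) encodes p62, which binds ubiquitin and ATG8 proteins. Its level was 505, 567 and 515 FPKM in young replicates 1, 2 and 3, and 598, 548 and 531 FPKM in aged replicates 1, 2 and 3. The groups overlapped, with aged replicate 1 highest and young replicate 1 lowest. The means were 529 ± 33.1 and 559 ± 34.8 FPKM (SD, n = 3 each), and the log2 change was 0.08 ± 0.07 (SE), with a 95% interval of −0.08 to 0.24 and an adjusted p of 0.364 (limma). After quantile normalization the change was 0.25 with an adjusted p of 0.0159 (limma), the single setting tried in which Sqstm1 was called. Mrnip, which overlaps it on the plus strand, shares 20.4% of the stretches of 50 bases of its longest coding transcript.

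Bnip3 (ENSMUSG00000078566, chr7:138890836-138909519, minus strand) encodes a receptor in the outer mitochondrial membrane that binds ATG8 proteins. Its level was 139, 132 and 123 FPKM in young replicates 1, 2 and 3, and 137, 117 and 123 FPKM in aged replicates 1, 2 and 3. The groups overlapped, and the means of 131 ± 7.90 and 126 ± 10.3 FPKM (SD, n = 3 each) differed by less than the spread in each group. The log2 change was −0.06 ± 0.08 (SE), with a 95% interval of −0.24 to 0.11 and an adjusted p of 0.510 (limma). Bnip3 is the least certain of the 5 levels, since 62.4% of the stretches of 50 bases of its longest coding transcript also occur in other annotated genes, among them the antisense gene Gm45507 and AC160336.1. The sources used here do not state how the authors' counting divided such reads.

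**Figure D1:**
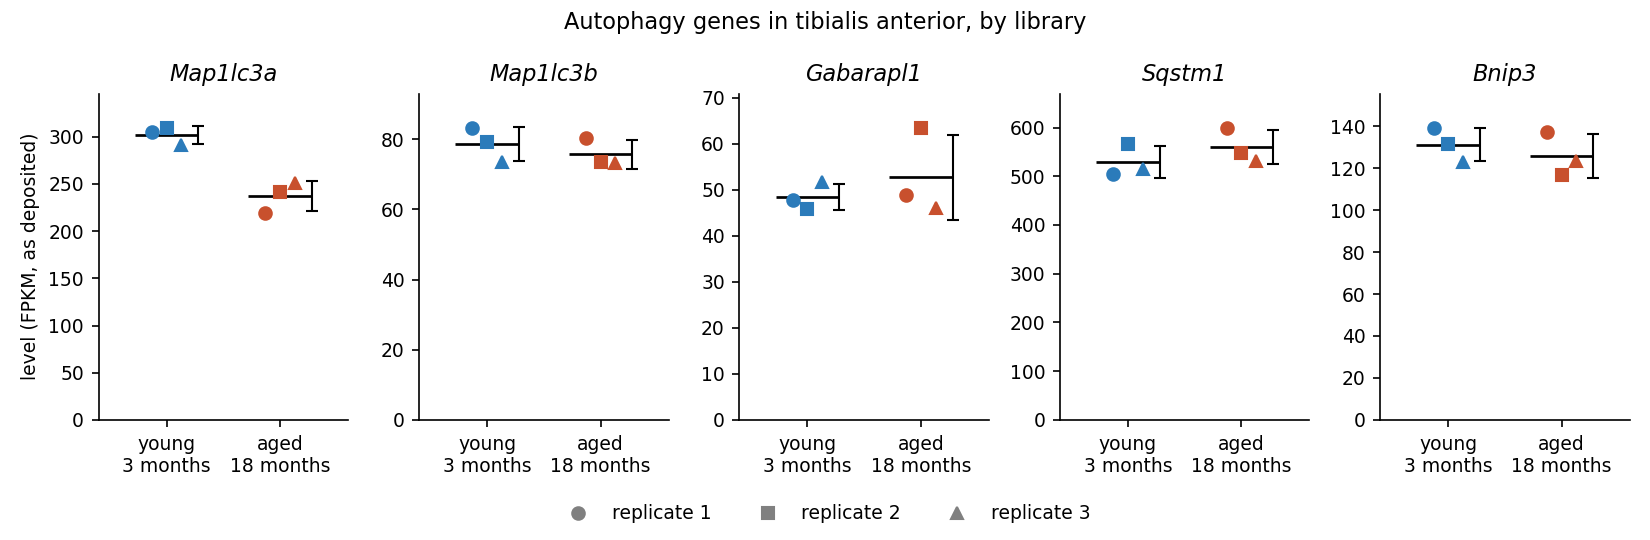
Level in FPKM (vertical axes, from 0) of 5 autophagy genes in each young and aged library. Points are libraries with the replicate number as the shape, horizontal lines are means and bars are SDs (n = 3 each). For Map1lc3a the aged libraries (219 to 250.5 FPKM) lie below the young ones (291 to 309 FPKM), and for the other 4 genes the groups overlap.

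Per unit of transcript length the order of the mean levels over the 6 libraries was Sqstm1 (544 FPKM), Map1lc3a (269 FPKM), Bnip3 (128 FPKM), Map1lc3b (77.1 FPKM) and Gabarapl1 (50.6 FPKM). The library ranges of neighbours in this order did not overlap. The order depends in part on the transcript length the authors divided by. The lengths recovered from the FPKM values were 1222, 915, 720, 2169 and 947 bases for these genes, each within 1 base of the mean over the gene's annotated transcripts. Divided by the longest coding transcript instead, the mean levels were 249, 222, 52.7, 63.5 and 26.3 FPKM, so Bnip3 and Map1lc3b changed places, and the library ranges of Sqstm1 and Map1lc3a then overlapped. The length is the same in every library and does not enter the comparison of ages.

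The 5 ATG8 genes, with Gabarap and Gabarapl2 added, summed to 577, 556 and 545 FPKM in young replicates 1, 2 and 3, and to 489, 516 and 516 FPKM in aged replicates 1, 2 and 3. Map1lc3a supplied 52.9%, 55.5% and 53.4% of that sum in young, and 44.9%, 46.9% and 48.5% in aged replicates 1, 2 and 3. Gabarap was next, at 18.4%, 16.2% and 17.8% in young and 21.9%, 20.2% and 20.7% in aged replicates 1, 2 and 3. Shares of a sum are tied to each other, so the higher share of Gabarap includes the lower one of Map1lc3a. As levels, Gabarap had a log2 change of 0.12 (adjusted p = 0.166, limma) and Gabarapl2 a log2 change of 0.10 (adjusted p = 0.334, limma), and neither passed the test.

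**Figure D2:**
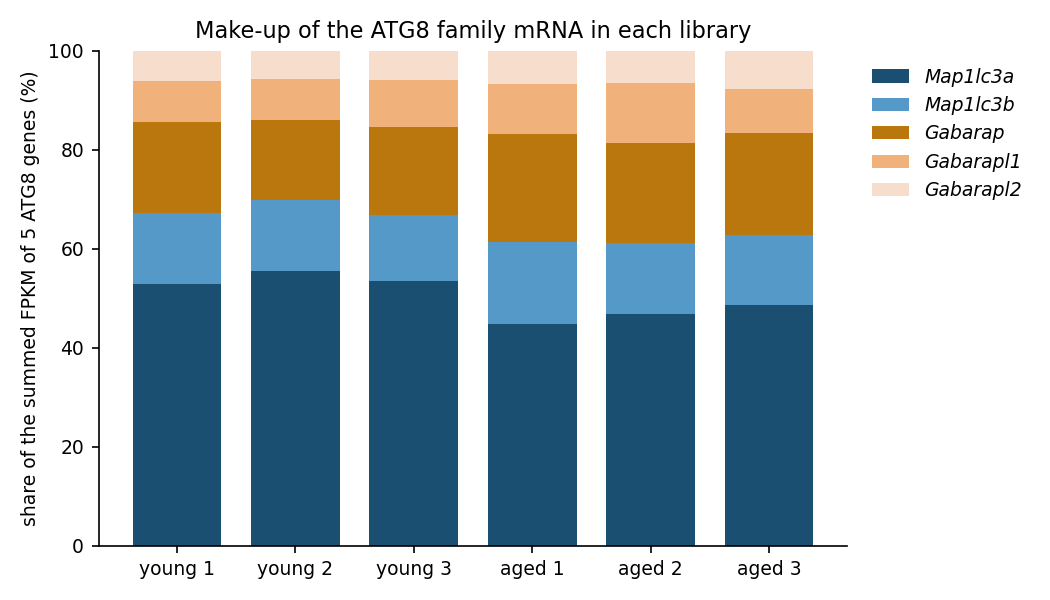
Share of the summed FPKM of 5 ATG8 genes (vertical axis, percent) held by each gene in each library. Map1lc3a holds 52.9% to 55.5% in the young and 44.9% to 48.5% in the aged libraries.

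Ratios of related genes within a library do not depend on the scaling between libraries, and 3 were compared. The ratio of Map1lc3a to Map1lc3b was 3.67, 3.90 and 3.95 in young replicates 1, 2 and 3, whereas it was 2.73, 3.29 and 3.42 in aged replicates 1, 2 and 3. All aged ratios lay below all young ones, with a log2 difference between the means of −0.29 (exact permutation test, two-sided, p = 0.1, adjusted p = 0.3 over the 3 ratios). With 3 against 3 libraries 0.1 is the smallest p this test can give. The ratio of Bnip3 to its relative Bnip3l, which encodes the receptor NIX, was 3.13, 3.15 and 2.87 in young and 2.88, 2.65 and 2.61 in aged replicates 1, 2 and 3. Those ranges overlapped (log2 difference −0.17, exact permutation test, two-sided, p = 0.2, adjusted p = 0.3). The ratio of Gabarapl1 to Gabarap had a log2 difference of −0.01 (exact permutation test, two-sided, p = 1). Ratios of Sqstm1 to Nbr1 and of Ctsl to Ctsb were not analysed here.

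The promoters of Gabarapl1 and Bnip3, both named above as FoxO3 targets, are shown, since the mRNA of Foxo1 and Foxo3, described below, fell. That of Map1lc3b, named there too, was searched in the same way and is not shown. The stretches end just before the annotated gene, read 5′ to 3′ on the gene's strand, and come from RefSeq on GRCm38.p6 (chr6:129532942-129533159, plus strand, and chr7:138909520-138909756, minus strand). Capitals mark the motif letters found, which are FoxO letters in Gabarapl1 and the E-box of TFEB, not FoxO letters, in Bnip3.
Gabarapl1: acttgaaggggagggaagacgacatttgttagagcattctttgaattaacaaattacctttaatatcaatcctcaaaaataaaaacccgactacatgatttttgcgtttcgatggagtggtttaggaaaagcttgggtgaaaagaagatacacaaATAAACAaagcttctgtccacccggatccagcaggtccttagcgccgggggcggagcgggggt
Bnip3: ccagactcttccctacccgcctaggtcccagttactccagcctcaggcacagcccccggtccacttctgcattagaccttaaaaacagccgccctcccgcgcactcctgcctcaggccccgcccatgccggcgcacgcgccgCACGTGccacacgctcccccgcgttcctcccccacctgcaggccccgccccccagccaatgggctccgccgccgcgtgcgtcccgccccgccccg
Promoters were found for 4 of the 5 genes by symbol, all but Map1lc3a. Windows of 300 bases around the RefSeq start were searched on both strands for the FoxO letters GTAAACA and ATAAACA, the E-box CACGTG of TFEB and its relatives, its extension TCACGTGA, which contains it, and TGACNNNGC, the core of the antioxidant response element. Gabarapl1 held ATAAACA at −95 from the start, letters found in 4.60% of 32851 promoters. Bnip3 held CACGTG at −108, found in 7.15%. Map1lc3b held TGACNNNGC at 4 bases past the start, found in 12.4%. Among the named FoxO3 targets only Gabarapl1 thus held FoxO letters, and Bnip3 and Map1lc3b held none. Neither GTAAACA (3.65% of promoters) nor TCACGTGA (0.974%) occurred in the 4 windows, and the window of Sqstm1 held none of the 5 motifs. These matches describe letters and not bound sites.

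For each gene the genes with the most similar profile over the 6 libraries were looked up by Pearson's r of log2(FPKM + 1), as a description. For Map1lc3a these were Ankrd9 (r = 0.999, n = 6) and Cnot6l (r = 0.992). Ankrd9, an ankyrin repeat gene, lay at 226, 240 and 210 FPKM in young and at 93.1, 120 and 135 FPKM in aged replicates 1, 2 and 3. It fell by 0.96 on the log2 scale (adjusted p = 0.000914, limma), and it had the same order of the 6 libraries as Map1lc3a. Both r include the step between the ages.

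For Gabarapl1 the most similar genes were Ppp1r15a (r = 0.978), which encodes the stress-induced phosphatase subunit GADD34, and the immediate early gene Fos (r = 0.965). Fos lay at 2.37, 2.80 and 5.47 FPKM in young and at 3.51, 10.5 and 2.57 FPKM in aged replicates 1, 2 and 3, so aged replicate 2 was the highest library for Fos as for Gabarapl1. Neither Fos (adjusted p = 0.472) nor Ppp1r15a (adjusted p = 0.409) passed the test (limma). For the remaining genes they were Zscan2 (r = 0.972) and Wdr48 (r = 0.969) for Map1lc3b, Ctdp1 (r = 0.970) and the calcium release channel gene Ryr1 (r = 0.968) for Sqstm1, and Slc43a2 (r = 0.992) and Trim41 (r = 0.985) for Bnip3. None of these 6 passed the test of age, and all points share the same 6 libraries.

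The other genes of the pathway were taken from 12 lists arranged by step, which name 168 genes. Of these, 114 are listed in the tables and 110 were tested, of which 28 rose, 24 fell and 58 did not pass. The called share was 47.3%, beside 51.8% of all genes tested (27.3% higher and 24.5% lower). The counts of each list below stand beside these shares. The median log2 change over all genes tested was 0.02.

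Among genes that start an autophagosome, the ULK kinase complex had 1 of 5 genes higher in aged muscle. Atg13, its scaffold, rose by 0.25 ± 0.05 (SE, log2, adjusted p = 0.00729, limma), from 31.3 ± 1.25 to 37.5 ± 0.205 FPKM. Ulk1, the kinase, was at 130 ± 9.62 and 123 ± 18.0 FPKM (log2 change −0.09, adjusted p = 0.521, limma). Of 5 tested genes of the class III PI3-kinase complexes, which mark the growing membrane with a lipid, 2 rose and none fell. They were Nrbf2, a subunit of the complex (log2 change 0.41 ± 0.09, adjusted p = 0.00889, limma), and Rubcn, which encodes Rubicon, an inhibitor of autophagosome maturation (0.35 ± 0.06, adjusted p = 0.00345, limma). Becn1 was not analysed here.

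Among genes that attach ATG8 proteins or enlarge the membrane, 3 of 9 tested rose and 2 fell. Their median log2 change was 0.05, and the count of 5 calls became 2 without young replicate 2 and 3 without young replicate 3 or aged replicate 1. The largest increases were those of Atg4a (17.6 ± 1.14 to 25.7 ± 2.47 FPKM, log2 change 0.52 ± 0.08, adjusted p = 0.00220, limma) and Atg4c (2.45 ± 0.227 to 3.42 ± 0.127 FPKM, log2 change 0.36, adjusted p = 0.00705, limma). ATG4 proteases trim ATG8 proteins before attachment and release them from the membrane afterwards. Atg2a, which encodes a lipid transfer protein, fell by 0.29 (adjusted p = 0.0144, limma), a call lost without young replicate 2 (adjusted p = 0.0562). Atg7 was not analysed here.

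Of 7 tested cargo receptor genes, 2 rose and 5, Sqstm1 among them, did not pass. Ncoa4, the receptor that delivers ferritin to lysosomes, lay at 10.5, 10.1 and 10.9 FPKM in young and at 14.2, 14.4 and 15.1 FPKM in aged replicates 1, 2 and 3, an increase of 0.44 ± 0.06 on the log2 scale (adjusted p = 0.00111, limma). Optn, which encodes the ubiquitin receptor optineurin, rose by 0.33 ± 0.07 (adjusted p = 0.00735, limma).

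Of 6 tested mitophagy genes, 2 rose, 1 fell and 3, among them Bnip3 and Bnip3l, did not pass. Pink1, whose kinase marks damaged mitochondria for removal, lay at 397, 411 and 398 FPKM in young and at 507, 490 and 520 FPKM in aged replicates 1, 2 and 3. The aged libraries all lay above the young ones, and the log2 change was 0.33 ± 0.05 (adjusted p = 0.00190, limma). Phb2, an inner membrane protein that also serves as a mitophagy receptor, fell by 0.32 ± 0.06 (adjusted p = 0.00313, limma). The increase of Fundc1, an outer membrane receptor, was 0.27 (adjusted p = 0.0313, limma) and was lost in 5 of the settings tried, among them leaving out aged replicate 1 or 3 or young replicate 1 or 2. Bnip3l was at 43.0 ± 1.26 and 46.3 ± 1.91 FPKM (adjusted p = 0.161, limma).

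Genes of autophagosome fusion had 4 of 9 tested higher and 1 lower. These 5 calls became 3 when any library but aged replicate 2 was left out. Plekhm1, an adaptor that links RAB7 to the tethering complex, rose from 6.75 ± 0.228 to 9.88 ± 0.896 FPKM (log2 change 0.49 ± 0.08, adjusted p = 0.00209, limma). Snap29, a SNARE of the fusion step, rose from 5.69 ± 0.431 to 8.0 ± 0.367 FPKM (0.43 ± 0.07, adjusted p = 0.00277, limma). Its partner Vamp8 fell by 0.24 (adjusted p = 0.0361, limma), a call lost in 7 settings, which include leaving out any library but aged replicate 2.

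**Figure D3:**
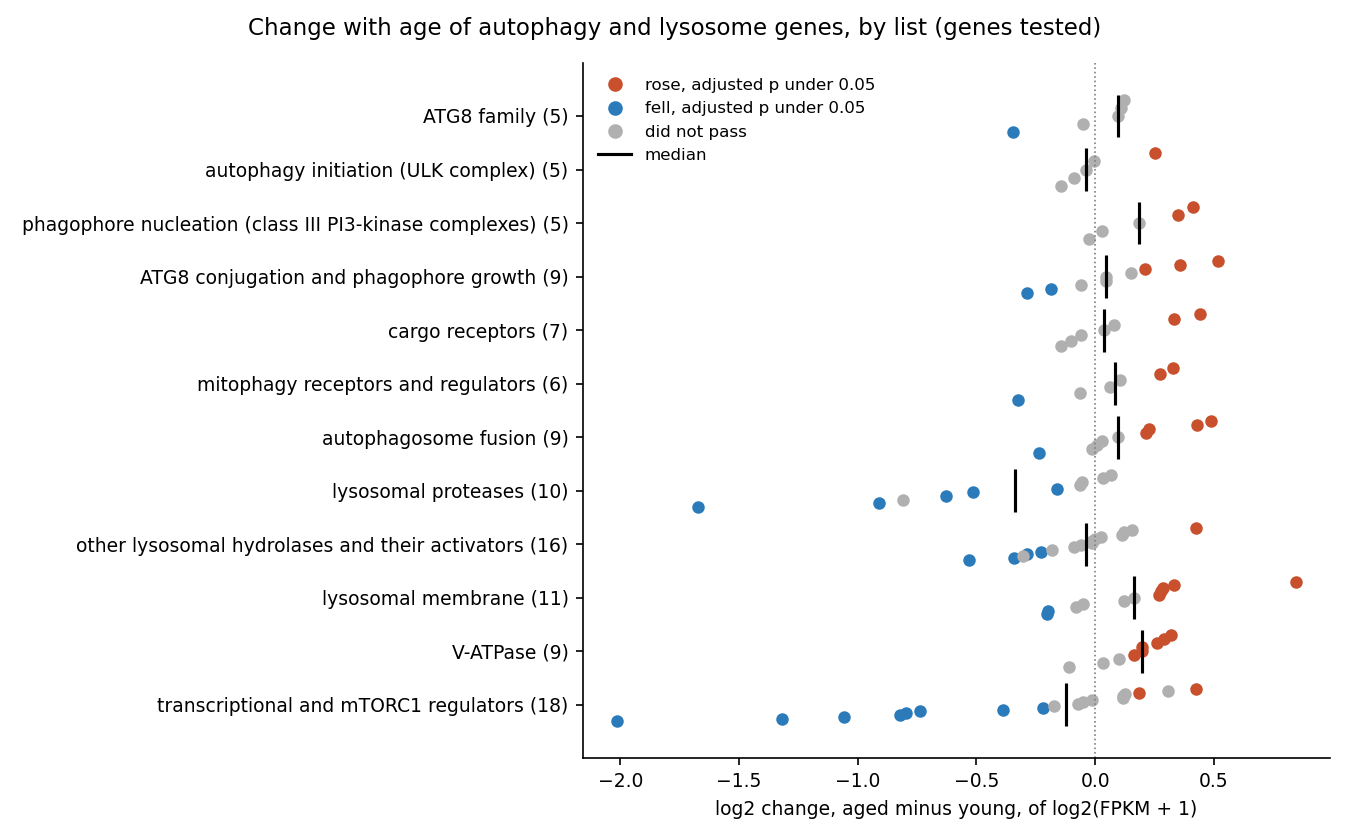
Log2 change of each tested gene (points, aged minus young, log2(FPKM + 1)) in the 12 lists, with the number tested in brackets and the median as a bar. Red points rose, blue points fell and grey points did not pass. The V-ATPase genes have a median of 0.20 and the lysosomal proteases one of −0.34.

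Genes of the lysosome were taken as proteases, other hydrolases, membrane proteins and the proton pump, and differences between these lists were not tested. Among 10 tested proteases there were 5 decreases and no increase, and 5 genes did not pass. Over all genes tested 51.8% were called, 24.5% as lower. Their median log2 change was −0.34. Ctsk, which encodes cathepsin K, lay at 9.56, 8.10 and 9.06 FPKM in young and at 2.74, 1.51 and 2.18 FPKM in aged replicates 1, 2 and 3. It fell by 1.67 ± 0.14 on the log2 scale (adjusted p = 0.000151, limma), 4.16-fold between the means. Ctsh, an aminopeptidase, was at 11.8 ± 3.09 FPKM in young and 5.76 ± 1.11 FPKM in aged muscle (−0.91 ± 0.18 on the log2 scale, adjusted p = 0.00493, limma) and Ctsf, a cysteine protease, at 21.7 ± 0.838 and 13.8 ± 1.35 FPKM (−0.63 ± 0.08, adjusted p = 0.000794, limma). The most abundant of the list did not share the size of these changes. Ctsd, the main aspartic protease of lysosomes, was at 136, 137 and 137 FPKM in young and at 144, 140 and 136 FPKM in aged replicates 1, 2 and 3 (a log2 difference of 0.03, adjusted p = 0.589, limma). Ctsb fell by 0.16 (adjusted p = 0.0333, limma), a call lost with the replicate number as a block (adjusted p = 0.0533), after rescaling without the 20 highest genes, and without any library but aged replicate 1. Ctss, named after its values were seen, had a log2 change of −0.81 ± 0.30 with an adjusted p of 0.0509 and of 0.00416 with the block (limma).

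Markers of other cell types are given beside the proteases. Their counts stand beside 51.8% of all genes tested called, 24.5% as lower and 27.3% as higher. Of 8 tested macrophage markers, 5 fell and none rose. The count became 2 when aged replicate 2, aged replicate 3 or young replicate 1 (7 tested) was left out. It was 2 of 9 with no minimum FPKM, 3 with robust estimation and 8 with the replicate block (limma). A marker that passed the minimum of 1 FPKM only with young replicate 1 is favoured to show a decrease. The summed level of the 9 listed was 68.5, 43.3 and 47.9 FPKM in young and 42.0, 20.1 and 26.8 FPKM in aged replicates 1, 2 and 3. Of 8 fibroblast markers, 6 fell and none rose, and all 8 fell with the block or without aged replicate 1. Their sum was 1732, 1628 and 1183 FPKM in young and 308, 235 and 268 FPKM in aged replicates 1, 2 and 3. In the young libraries most of it came from 3 collagen genes, whose sum was 12.6-fold lower in aged muscle, while that of the other 5 markers was 1.33-fold lower, at 259, 214 and 197 FPKM in young and 193, 134 and 176 FPKM in aged replicates 1, 2 and 3. This split was made after the values were seen. Of 5 tested endothelial markers, 1 rose and 2 fell, and their sums lay between 145 and 160 FPKM in young and between 117 and 148 FPKM in aged libraries. Their part in the protease values was not tested, and in whole muscle fewer cells of a type and less RNA per cell cannot be told apart. None of the listed markers was at 0 in any library. Within each age replicate 1 had the highest and replicate 2 the lowest macrophage sum. The same held in both ages for 6 of the 10 tested proteases, Ctsk, Ctsh, Ctsb, Lgmn, Ctss and Ctsc, of which Ctss and Ctsc did not pass the test of age. Ctsf, which also fell, did not have this order in the aged libraries. The order was looked at after the values were seen, and its share over all genes tested was not counted. Over all genes tested, deviations of same-numbered libraries correlated between the ages at 0.177, 0.182 and 0.136. Which cells the protease mRNA came from was not tested.

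**Figure D4:**
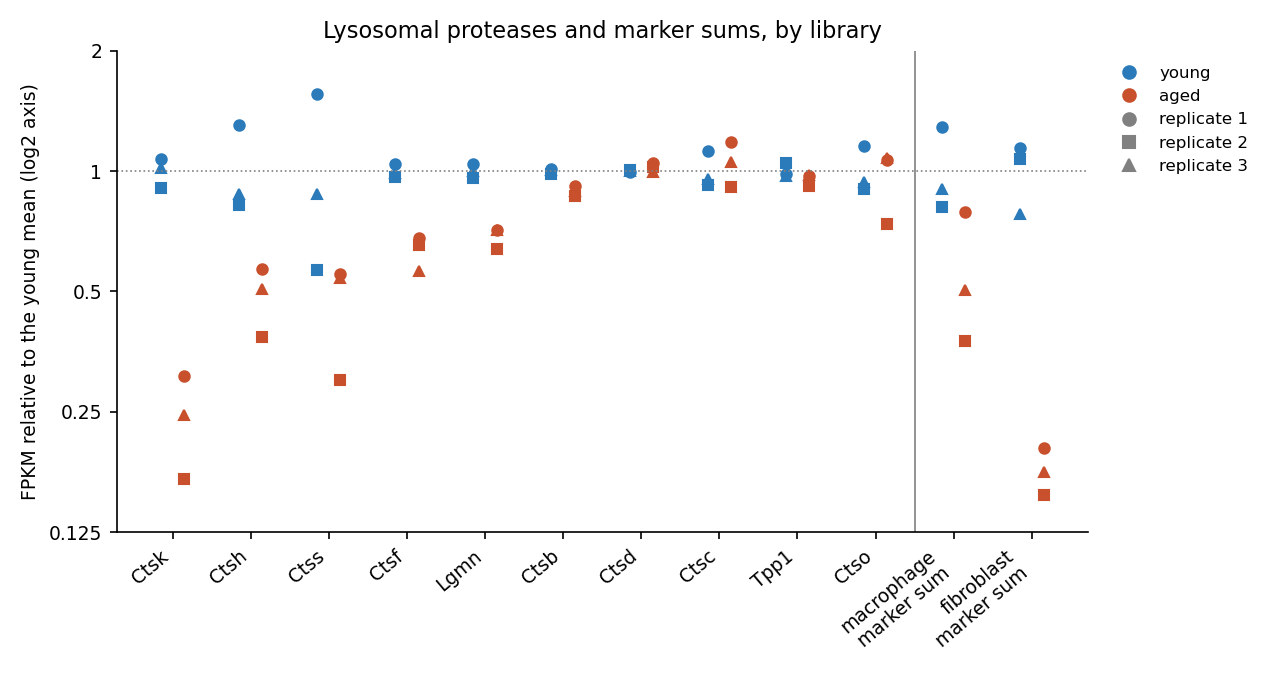
FPKM of 10 lysosomal proteases and the summed FPKM of macrophage and fibroblast markers in each library, divided by the mean of the young libraries (vertical axis, log2 spacing). Colours are ages and shapes are replicate numbers. The aged points of Ctsk (1.51 to 2.74 FPKM against a young mean of 8.91 FPKM) and of the fibroblast markers lie low. Aged replicate 2 of Ctss (1.65 FPKM against a young mean of 5.51 FPKM) lies just below the highest aged point of Ctsk. The aged points of Ctsd lie at the young mean.

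Other lysosomal hydrolases and their activators had 1 of 16 tested genes higher and 4 lower. Their median log2 change was −0.04, and the 5 calls became 3 when any of the young libraries was left out. Gaa, the acid glucosidase that breaks down glycogen in lysosomes and is lost in Pompe disease, lay at 216, 255 and 223 FPKM in young and at 342, 313 and 279 FPKM in aged replicates 1, 2 and 3. Every aged library was above every young one, and the log2 change was 0.43 ± 0.09 (adjusted p = 0.00732, limma). The largest called decreases were those of Lipa, the acid lipase, and of Glb1, the acid galactosidase. Lipa went from 3.95 ± 0.0521 to 2.45 ± 0.413 FPKM (log2 change −0.53 ± 0.10, adjusted p = 0.00361, limma). Glb1 went from 1.27 ± 0.0261 to 0.791 ± 0.070 FPKM (adjusted p = 0.00817, limma). The mean of Glb1 over the 6 libraries was 1.03 FPKM, so it passed the minimum of 1 FPKM only through its young level. That minimum favours a decrease in such a gene.

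The lysosomal membrane list had 5 of 11 tested genes higher and 2 lower, beside 27.3% and 24.5% of all genes tested. Its median log2 change was 0.16. No gene was called lower in limma-voom, after rescaling without the 20 highest genes or when any library but aged replicate 2 was left out, and at least 5 were called higher in every setting. Laptm4b, a membrane protein of late endosomes and lysosomes, rose 1.89-fold, from 7.87, 8.38 and 9.58 FPKM in young to 17.2, 15.3 and 16.2 FPKM in aged replicates 1, 2 and 3 (a log2 difference of 0.85 ± 0.08, adjusted p = 0.000292, limma). Tmem192 rose by 0.33 (adjusted p = 0.00362, limma). Lamp1, a main glycoprotein of the lysosomal membrane, rose from 154 ± 6.25 to 188 ± 14.4 FPKM (0.29 ± 0.07, adjusted p = 0.0117, limma), whereas Lamp2 was at 34.0 ± 2.64 and 32.8 ± 2.15 FPKM (adjusted p = 0.612, limma). The difference between Lamp1 and Lamp2 was not tested.

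Of 18 genes named for the V-ATPase, the proton pump that acidifies lysosomes, 9 were tested and the others were not analysed here. Among the 9 tested, 6 rose and none fell. This stands beside 27.3% of all genes tested called as higher. The median of the 9 was 0.20. The largest changes were those of Atp6v1h (0.32 ± 0.08, adjusted p = 0.0103), Atp6v1a (0.29 ± 0.06, adjusted p = 0.00525) and Atp6v1g1 (0.26 ± 0.09, adjusted p = 0.0393, limma). The call of Atp6v1g1 was lost in 5 settings, among them leaving out any young library. After median-of-ratios scaling 3 of the 9 rose. Without young replicate 1 or young replicate 2 the count was 2, and without young replicate 3 or aged replicate 3 it was 3.

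Genes that control the pathway held the largest decrease of the 12 lists, that of Depp1. Of 18 tested transcriptional and mTORC1 regulators, 8 were lower in aged muscle, 2 higher and 8 not called. Over all genes tested 24.5% were called as lower and 27.3% as higher. The median log2 change of the 18 was −0.12. Depp1 (listed as 8430408G22Rik), a FoxO target that acts on autophagy, fell 4.26-fold, from 45.8, 58.2 and 54.6 FPKM in young to 10.2, 14.6 and 12.4 FPKM in aged replicates 1, 2 and 3 (a log2 difference of −2.01 ± 0.13, adjusted p = 5.8e-05, limma). Sesn1, which encodes sestrin 1, an inhibitor of mTORC1 signalling, fell 2.60-fold, from 41.0, 38.1 and 32.7 FPKM to 12.7, 15.3 and 14.9 FPKM (−1.32 ± 0.10, adjusted p = 0.000116, limma). In both genes the lowest young library was well above the highest aged one.

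Foxo1 and Foxo3 encode forkhead factors that activate autophagy and ubiquitin ligase genes in muscle. Foxo1 lay at 8.32, 8.0 and 6.40 FPKM in young and at 2.53, 3.41 and 3.43 FPKM in aged replicates 1, 2 and 3, and fell by 1.06 ± 0.12 on the log2 scale (adjusted p = 0.000560, limma). Foxo3 lay at 37.5, 40.4 and 31.9 FPKM in young and at 19.8, 21.4 and 20.6 FPKM in aged replicates 1, 2 and 3, and fell by 0.80 ± 0.09 (adjusted p = 0.000470, limma). No aged library reached a young one for either gene. Foxo4, named after its values were seen, had the highest level of the 3 FoxO genes listed, at 128 ± 3.09 FPKM in young and 124 ± 3.38 FPKM in aged muscle, and did not pass (log2 change −0.05, adjusted p = 0.434, limma). Among genes named here as FoxO targets, Depp1 fell by 2.01, and Map1lc3b, Gabarapl1 and Bnip3 had log2 changes of −0.05, 0.11 and −0.06 and did not pass. They are not a full set of FoxO targets, and a link of their values to those of Foxo1 and Foxo3 was not tested. All these values are mRNA levels, and the location and phosphorylation of the FoxO proteins, which set their activity, were not measured.

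Tfeb, which encodes the factor that activates lysosome and autophagy genes, lay at 184, 197 and 185 FPKM in young and at 151, 137 and 144 FPKM in aged replicates 1, 2 and 3. It fell by 0.39 ± 0.06 (adjusted p = 0.00180, limma). Mtor, the kinase gene of mTORC1, was at 26.0 ± 0.656 and 24.7 ± 2.38 FPKM (log2 change −0.07, adjusted p = 0.460, limma). Trp53inp2, named after its values were seen, encodes a protein that carries ATG8 proteins out of the nucleus. It lay at 487, 486 and 483 FPKM in young and at 269, 294 and 310 FPKM in aged replicates 1, 2 and 3 and fell by 0.74 ± 0.06 (adjusted p = 0.000162, limma). Its aged libraries had the same order as those of Map1lc3a, with replicate 1 lowest and replicate 3 highest. The share of all genes tested with this order was not counted, and a link between the 2 genes was not tested.

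**Figure D5:**
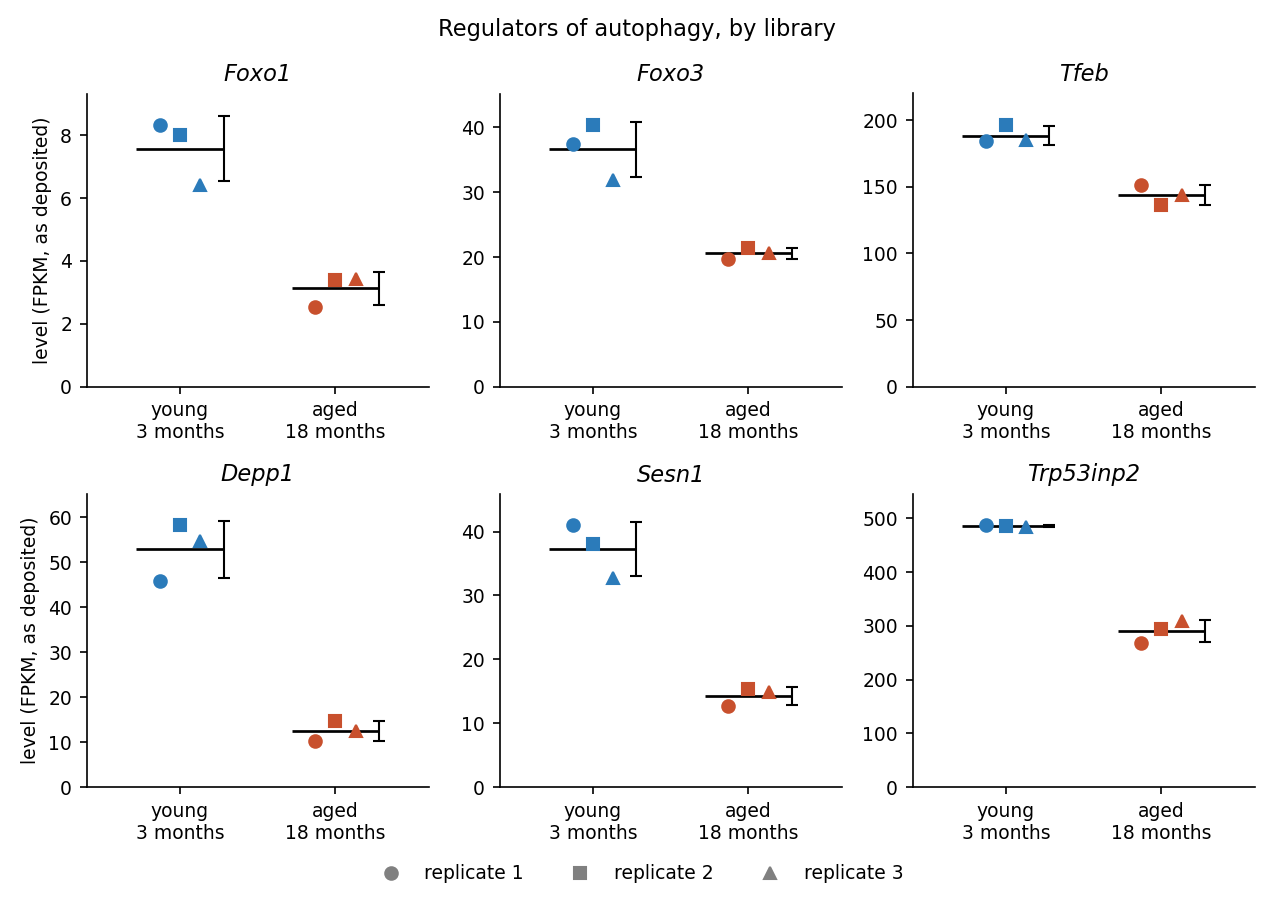
Level in FPKM (vertical axes, from 0) of 6 regulators of autophagy in each library. Points are libraries with the replicate number as the shape, horizontal lines are means and bars are SDs (n = 3 each). In all 6 panels the aged libraries lie below the young ones, for Depp1 at 10.2 to 14.6 against 45.8 to 58.2 FPKM. The 6 shown are all called decreases. Of the 18 regulators tested, 2 rose and 8 did not pass, and none of these is shown.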

How the data were processed

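The deposited FPKM values of 6 libraries, 1 table each, were used. The submitters' processing notes name TopHat, DESeq2, bcl2fastq 2.19 and the build mm9, but the deposited positions follow GRCm38: of 11239 identifiers 11210 are in GENCODE M21, 89.0% with the same start base. Symbols turned into dates were restored from identifiers for 14 genes, and 1 line of each table was not used. The sources used here do not state how the listed genes were selected from the 55536 annotated.

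The 7690 genes that averaged 1 FPKM or more were compared as log2(FPKM + 1), a scale that understates changes of low genes, with limma 3.58.1 in R 4.3.3 (trend, two-sided, Benjamini-Hochberg). Fragment counts were recovered from the deposited FPKM with a length for each gene that made its counts whole within 0.001. Since the length was chosen for this, the 100% of whole values is no check of the recovery. Among genes with a single annotated transcript, 89.7% of these lengths matched the annotation. An alternative, limma-voom on the recovered counts, called 3987 genes, beside 3982. The listed genes held 80.0% to 81.1% of the library totals. The fit and the recovery were tested on simulated data.

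The genes studied and the lists were chosen with earlier results of these data known. Named beside them are set partners, up to 3 called genes of largest change per list, and the 2 most similar genes of each. Both groups carry replicate numbers 1 to 3. Deviations from the group means correlated between same-numbered libraries at 0.177, 0.182 and 0.136, and between others at −0.192 to 0.0358, so a model with the number as a block was also fitted. Alternatives were other pseudocounts, minimums, scalings, robust estimation, the block and leaving out each library. Transcript lengths of the longest coding transcript were added after the data were seen. Intervals of 95% are confidence intervals of the mean log2 change. They are built from the spread between samples and are not ranges that hold 95% of samples.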

Additional observations from a re-analysis of the deposited data

How the results depend on the processing

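The call of Map1lc3a kept its direction and its side of the threshold in every alternative run, with adjusted p-values of 0.00495 to 0.0198 when a library was left out (limma). Rescaling without the 20 highest genes turned Map1lc3b to 0.0125 and Bnip3 to 0.0026, and leaving out aged replicate 2 turned Gabarapl1 to −0.0277 (up to 0.197 without aged replicate 3), none of them called. The ratio of Gabarapl1 to Gabarap ran from −0.16 to 0.08 on the log2 scale when a library was left out, with 0.0054 without young replicate 2, 0.0387 without young replicate 3, 0.0450 without aged replicate 1 and 0.0819 without aged replicate 3. Quantile normalization called Sqstm1 (0.25), so 2 of the 5 genes were called there. Of the lists, the ATG8 family had 2 calls after rescaling without the 20 highest genes, autophagosome fusion 3 with no minimum FPKM, the other hydrolases 2 with a minimum of 5 FPKM, and the V-ATPase 3 after median-of-ratios scaling. Leaving out each library gave 2 to 5 calls for ATG8 conjugation, 3 to 5 for fusion, 3 to 6 for the other hydrolases, 2 to 5 for the V-ATPase and 3030 to 3841 over all genes. The cause of these differences was not tested.

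With the replicate block 4124 genes were called. In the pathway lists Atg9a (adjusted p = 0.0554), Atp6v1c1 (0.0662), Epg5 (0.0513), Cln3 (0.0561) and Rheb (0.0584) then lost their calls beside Ctsb, and Man2b1 (0.00826) and Flcn (0.0263) gained one beside Ctss (limma). The block changed no other call among the genes of the pathway lists. Among the marker genes Adgre1, C1qc, Mpeg1, Dcn and Fbln1 gained a call with the block and Tnnt3 lost it. No scaling moved the median of all genes by more than 0.06. With 3 libraries a group, changes as small as those of Map1lc3b, Gabarapl1, Sqstm1 and Bnip3 were not detectable.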
